A study of Mus musculus with 4 samples.

Results

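The genes described here encode the nuclear-made machinery that transcribes mitochondrial DNA (mtDNA), copies it and keeps or clears its RNA. They are *Tfam*, *Polrmt*, *Tfb1m*, *Tfb2m*, *Polg*, *Polg2*, *Lrpprc*, *Slirp*, *Pnpt1* and *Supv3l1*, chosen by name for their known roles. The choice was made with earlier results of these data known. All 10 of 10 were found among the 55401 genes of the table. Heart RNA was sequenced from mice aged 8 weeks in 4 libraries, 2 from wild-type mice and 2 from *Ctcf* heterozygous mice. The heterozygous mice carry the R567W substitution of CTCF on one *Ctcf* allele, made by CRISPR/Cas9 editing of C57BL/6N mice, and no Cre or cell-type-restricted promoter was involved in the methods. No other allele or agent was named for either group. The labels do not state whether a library holds 1 heart or several, so the p-values below measure only the spread between these libraries, which may be technical.

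Mitochondria carry a small circular genome that encodes core subunits of the respiratory chain, together with the rRNAs and tRNAs needed to translate them. All proteins that package, transcribe and replicate this genome are encoded in the nucleus and imported. In the heart, where mitochondria fill much of the muscle cell, transcription starts with TFAM, which bends promoter DNA, TFB2M, which opens it, and the single-subunit polymerase POLRMT. The long transcripts are cut into separate RNAs, whose mRNAs are held by LRPPRC and SLIRP and whose surplus is degraded by PNPase and the helicase SUV3.

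Values are relative transcript abundances (TPM, transcripts scaled to a fixed total per library), which are corrected for gene length so that levels of different genes can be compared. Because of that fixed total a change in a few abundant genes shifts all others. The deposited tables do not hold read depth, and the counting error behind a value is unknown. Each library was therefore divided by a median-of-ratios factor over the tested genes, and "scaled TPM" below means the result. Fold changes are differences of log2(scaled TPM + 1), heterozygous minus wild-type, with standard errors (SE) from limma, and they understate the change of low genes. Of 55401 genes, 10036 with a mean of at least 1 TPM were tested, and a call required a fold change over 1.5 together with a Benjamini-Hochberg adjusted p below 0.05. *Ctcf* itself stood at 6.12 and 6.02 scaled TPM in wild-type libraries and 7.51 and 5.76 in heterozygous libraries (log2 fold change 0.10, SE 0.16, adjusted p = 0.814 from limma), and TPM do not show the allele. The heart label was checked against marker genes. Cardiomyocyte markers (*Myh6*, *Tnnt2*, *Actc1*, *Ryr2*, *Pln*) summed to between 11535 and 13645 scaled TPM, and liver and adipocyte markers to under 1 in every library. Most of the cardiomyocyte sum was *Myh6* (log2 fold change 0.08), and the other 4 genes had negative values. Both heterozygous libraries lay below both wild-type libraries for 2 of the 5, *Actc1* (-0.46) and *Pln* (-0.48), against 23.3% of all tested genes. Atrial markers (*Myl7*, *Nppa*, *Sln*, *Myl4*) were uneven, with sums of 806 and 2354 in wild-type libraries and 1918 and 3281 in heterozygous libraries. Erythroid markers summed to 2120 in heterozygous replicate 2 and to between 930 and 987 in the other 3 libraries. Endothelial sums were 68.0 and 70.5 in wild-type libraries and 62.1 and 66.4 in heterozygous libraries. Fibroblast sums were 40.5 and 59.6 against 32.6 and 39.2, and mural sums 64.4 and 56.7 against 43.7 and 56.3. These sums were lower in both heterozygous libraries, while immune sums overlapped (7.12 and 6.87 against 6.97 and 7.89). By gene, both heterozygous libraries lay below for 2 of 5 endothelial, 2 of 5 fibroblast and 2 of 4 mural genes (23.3% of all tested genes). They lay above for 1 endothelial gene, *Tie1* (0.14), against 23.7% of all tested genes. The largest negative values of these lists were *Pecam1* (-0.43), *Dcn* (-0.56) and *Acta2* (-0.54), while *Cdh5* (-0.02) and *Col1a1* (0.09) overlapped. Most of the fibroblast sum was *Dcn*. The part of these differences in the results below was not tested.

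The promoters of these genes are shown first, because nuclear respiratory factor 1 (NRF-1) and GA-binding protein (GABP, also called NRF-2) are the textbook activators of this gene group. RefSeq promoters on GRCm38.p6, covering 250 bases before to 50 bases after a start site, matched all 10 genes by symbol, with 1 promoter each. Both strands were searched for the letters GCGCANGC (NRF-1 core), CCGGAAGT (GABP and other ETS factors) and CAGGGGGC (part of the CTCF core). The NRF-1 letters were present in *Polrmt*, *Tfb2m* and *Supv3l1*, 3 of 10 genes, against 9.95% of all 32817 promoters of the same length. The GABP letters were present in *Tfam* and *Polg*, 2 of 10, against 3.89% of all promoters. The CTCF letters were present in 0 of 10, against 2.87% of all promoters. *Polrmt* held 3 NRF-1 matches, which began at positions -133, -4 and 3 from the start site, and the matches at -4 and 3 overlap each other. The match in *Tfb2m* began at position 14, within the transcribed part.
The following 60-base stretches are those in which a match lies wholly upstream of the RefSeq start site. They are written 5′ to 3′ on the strand of the gene, with the matched letters in capitals. For *Tfam* and *Polg* the stretch lies within the gene span given below, which comes from GENCODE and reaches further upstream than the RefSeq start site. All 4 genes are on the minus strand, at chr10:79746681-79746740 (*Polrmt*), chr10:62449773-62449832 (*Supv3l1*), chr10:71238058-71238117 (*Tfam*) and chr7:79466278-79466337 (*Polg*).
Polrmt: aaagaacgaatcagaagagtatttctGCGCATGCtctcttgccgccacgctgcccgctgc
Supv3l1: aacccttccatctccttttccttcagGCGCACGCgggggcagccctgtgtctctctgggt
Tfam: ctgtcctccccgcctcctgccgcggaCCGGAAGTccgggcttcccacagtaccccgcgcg
Polg: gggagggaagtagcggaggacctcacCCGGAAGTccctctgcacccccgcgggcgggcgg
Among the genes with NRF-1 letters the log2 fold changes were 0.69 for *Polrmt*, -0.26 for *Tfb2m* and -0.0040 (SE 0.19) for *Supv3l1*. Those with GABP letters had -0.16 for *Tfam* and -0.07 for *Polg*. None of these genes was called, and a relation between letters and genotype was not tested. A match describes letters only and does not show that a factor was bound.

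Across all 4 libraries the levels of the 10 genes spanned more than an order of magnitude. The mean over the 4 libraries was 18.4 scaled TPM for *Polg*, 17.1 for *Polrmt* and 12.7 for *Supv3l1*, which placed *Polg* at the 86.4th percentile of the tested genes. A middle group held *Pnpt1* at 5.99, *Slirp* at 5.53, *Lrpprc* at 3.80, *Tfb2m* at 3.77 and *Tfam* at 2.74. *Tfb1m* stood at 1.71 and *Polg2*, the lowest, at 0.952. Neighbours in this order overlapped between libraries, except that all libraries of *Supv3l1* lay above all of *Pnpt1*, all of *Tfam* above all of *Tfb1m*, and all of *Tfb1m* above all of *Polg2*. Their summed level was 72.5 and 68.2 scaled TPM in wild-type libraries and 74.8 and 75.5 in heterozygous libraries, and most of that sum came from the 3 highest genes.

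**Figure D1:**
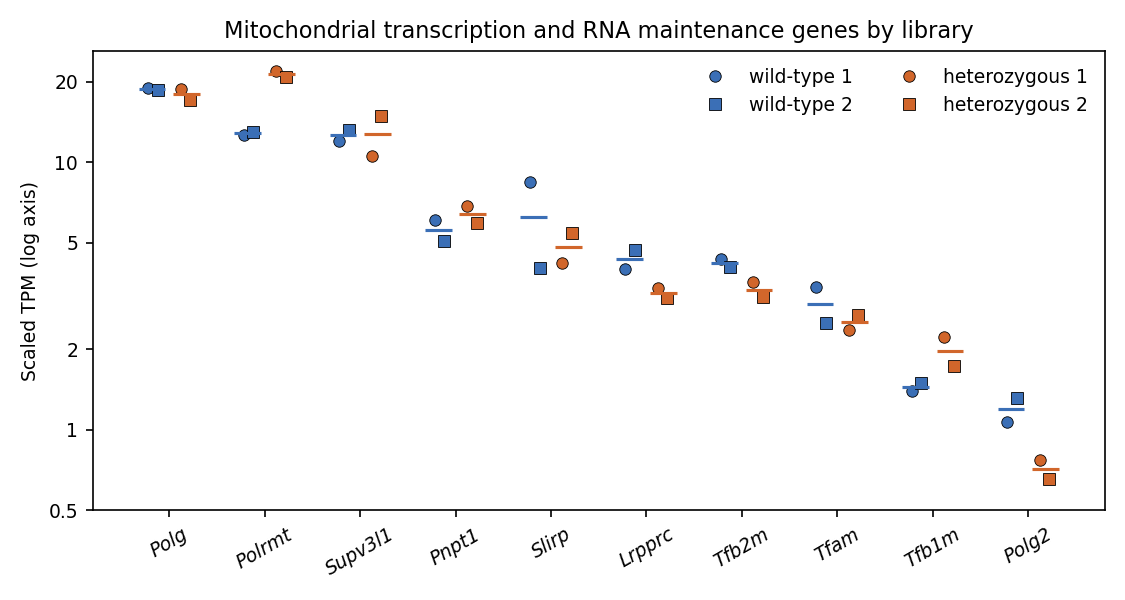
Scaled TPM (log axis) of the 10 genes in each library, ordered by mean level, with circles for replicate 1, squares for replicate 2, and horizontal lines for genotype means (n = 2). *Polrmt* is the gene whose heterozygous points (21.9 and 20.8) stand well clear of its wild-type points (12.7 and 13.01), while the wild-type points of *Slirp* (8.47 and 4.02) lie on either side of its heterozygous points.

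The first question was whether the machinery of mitochondrial transcription initiation differed between the genotypes. Among *Tfam*, *Polrmt*, *Tfb2m* and its relative *Tfb1m*, *Polrmt* had the largest difference, *Tfb1m* and *Tfb2m* lay on opposite sides of 0, and *Tfam* overlapped between the genotypes. None of the 10 genes was called by limma in either direction, where 0.00% of all tested genes were called higher and 0.0199% (2 genes) lower. At an unadjusted p under 0.05, 1 of 10 genes (*Polrmt*) was higher, against 6.49% of all tested genes, and 1 of 10 (*Polg2*) was lower, against 5.71%. The genotypes were separate with higher heterozygous values in both libraries for 2 of 10 genes, against 23.7% of all tested genes, and with lower ones for 3 of 10, against 23.3%. These shares are near the background. *Polg2*, in both counts of lower genes, passed the minimum for testing only through its wild-type libraries. In whole-heart RNA, fewer cells of a type and less RNA per cell cannot be told apart.

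*Polrmt*, the mitochondrial RNA polymerase gene (chromosome 10, 79736123 to 79746581, minus strand), stood at 12.7 and 13.01 scaled TPM in the wild-type libraries and at 21.9 and 20.8 in the heterozygous libraries. The genotypes were separate, and the gap between replicates was small beside the gap between the means, 12.8 ± 0.249 and 21.4 ± 0.784 (SD, n = 2 each). The log2 fold change was 0.69 (SE 0.15, 95% interval 0.34 to 1.05), which is 1.62-fold, and it did not pass (unadjusted p = 0.00276, adjusted p = 0.290 from limma). By unadjusted p it ranked 91 among the 10036 tested genes. With TPM as deposited, where the median log2 fold change of all genes was -0.35, the value of *Polrmt* was 0.27, so it remained positive while most genes were negative. No other annotated gene overlapped *Polrmt*, and no other transcript matched it at 95% identity over 200 bases.

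*Tfam*, the gene of the high-mobility-group protein that coats mtDNA and activates its promoters (chromosome 10, 71225464 to 71238280, minus strand), had 3.41 and 2.51 scaled TPM in wild-type libraries and 2.36 and 2.69 in heterozygous libraries. Wild-type replicate 1 stood above the other 3 libraries, which lay close together. The log2 fold change was -0.16 (SE 0.16, 95% interval -0.55 to 0.23, adjusted p = 0.693 from limma), and without wild-type replicate 1 it was 0.0026.

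*Tfb2m*, which encodes the initiation factor that melts the promoter (chromosome 1, 179528055 to 179546267, minus strand), stood at 4.34 and 4.06 scaled TPM in wild-type libraries and 3.56 and 3.13 in heterozygous libraries. Both heterozygous libraries were below both wild-type libraries, with a log2 fold change of -0.26 (SE 0.14, adjusted p = 0.467 from limma). A processed copy of its transcript, *Gm1818*, was 99.3% identical over 1187 bases but was listed at no more than 0.07 TPM in any library. *Tfb1m* encodes the related protein that dimethylates the small-subunit rRNA (chromosome 17, 3519256 to 3557781, minus strand), and it showed the opposite order. Its values were 1.40 and 1.49 scaled TPM in wild-type libraries and 2.23 and 1.73 in heterozygous libraries, a log2 fold change of 0.28 (SE 0.15, adjusted p = 0.467 from limma) that was -0.0038 with TPM as deposited. At this low level the 2 heterozygous libraries differed from each other by 0.24 on the log2 scale.

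**Figure D2:**
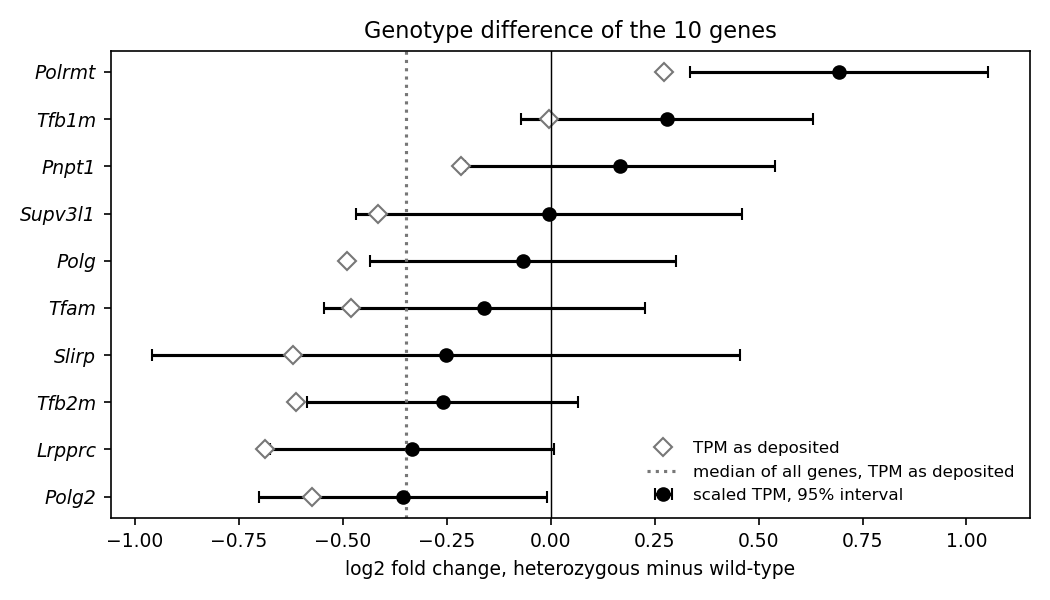
Log2 fold changes (heterozygous minus wild-type) of the 10 genes, with filled points and bars for scaled TPM and the 95% limma interval, open diamonds for TPM as deposited, and a dotted line at the median of all tested genes with TPM as deposited (-0.35). Only the bars of *Polrmt* (0.34 to 1.05) and *Polg2* (-0.70 to -0.0085) do not cross 0, and *Polg2* passed the minimum for testing only through its wild-type libraries.

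The genes of the mtDNA polymerase were compared next. *Polg* encodes its catalytic subunit (chromosome 7, 79446231 to 79466362, minus strand) and had 19.0 and 18.7 scaled TPM in wild-type libraries and 18.8 and 17.1 in heterozygous libraries. The genotypes overlapped, and the log2 fold change was -0.07 (SE 0.15, adjusted p = 0.873 from limma). Its 95% interval of -0.44 to 0.30 leaves out a change of 1.5-fold in either direction under this scaling only. With TPM as deposited the log2 fold change was -0.49, where the median of all genes was -0.35, and it was -0.40 without the mitochondrially encoded genes. *Polg2* encodes the accessory subunit that raises processivity (chromosome 11, 106768253 to 106779537, minus strand). It stood at 1.07 and 1.32 scaled TPM in wild-type libraries and 0.771 and 0.653 in heterozygous libraries, so all heterozygous values were lower, with a log2 fold change of -0.36 (SE 0.14, unadjusted p = 0.0460, adjusted p = 0.403 from limma). Its mean of 1.01 TPM was just over the minimum for testing and was reached only through the wild-type libraries (1.16 and 1.66 TPM as deposited, against 0.63 and 0.59), so this gene was more likely to differ once it was tested.

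The proteins LRPPRC and SLIRP bind each other and stabilize mitochondrial mRNAs. *Lrpprc* (chromosome 17, 84705247 to 84790789, minus strand) had 3.999 and 4.72 scaled TPM in wild-type libraries and 3.39 and 3.10 in heterozygous libraries. The genotypes did not overlap, and the log2 fold change was -0.33 (SE 0.14, 95% interval -0.67 to 0.0071, adjusted p = 0.412 from limma). *Slirp* (chromosome 12, 87443896 to 87452206, plus strand) was measured less tightly. Its wild-type libraries stood at 8.47 and 4.02 scaled TPM, a gap of 0.91 on the log2 scale and the widest between replicates among the 10 genes, and its heterozygous libraries at 4.22 and 5.42. The log2 fold change was -0.25 (SE 0.30, 95% interval -0.96 to 0.45, adjusted p = 0.734 from limma), and it was 0.20 without wild-type replicate 1. Of the exonic bases of *Slirp*, 93.9% also lie in exons of *Snw1* on the opposite strand, which was listed at between 1.78 and 3.89 TPM. Whether the counting used strand is not given in the sources used here, so reads of these genes cannot be told apart and the level of *Slirp* is uncertain.

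*Pnpt1* and *Supv3l1* encode the exoribonuclease PNPase and the helicase SUV3 of the mitochondrial degradosome. *Pnpt1* (chromosome 11, 29130744 to 29161828, plus strand) had 6.10 and 5.08 scaled TPM in wild-type libraries and 6.87 and 5.91 in heterozygous libraries. These ranges overlapped, with a log2 fold change of 0.17 (SE 0.16, adjusted p = 0.668 from limma) that was -0.21 with TPM as deposited. *Supv3l1* (chromosome 10, 62429209 to 62449738, minus strand) stood at 12.0 and 13.2 scaled TPM in wild-type libraries and 10.6 and 14.9 in heterozygous libraries. Its heterozygous libraries enclosed the wild-type libraries, and the log2 fold change was -0.0040 (SE 0.19, 95% interval -0.47 to 0.46, adjusted p = 0.994 from limma).

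Ratios between genes within a library do not depend on how libraries are scaled, so 5 pairs of partners were also compared by the ratio of their TPM. The *Tfam* to *Polrmt* ratio was 0.269 and 0.193 in wild-type libraries and 0.108 and 0.129 in heterozygous libraries. Both heterozygous ratios were below both wild-type ratios, with a difference of -0.95 on the log2 scale between means of -2.13 ± 0.34 and -3.08 ± 0.19 (SD, n = 2). The *Tfb2m* to *Tfb1m* ratio was 3.11 and 2.72 in wild-type libraries and 1.60 and 1.81 in heterozygous libraries, a separate difference of -0.77 on the log2 scale. For *Polg* to *Polg2* the ratio was 17.8 and 14.2 against 24.4 and 26.2, a separate difference of 0.67. That value rests on the low level of *Polg2*, and it was 0.08 when 1 was added to both TPM before the ratio, as in the fold changes. For each of these 3 pairs the two-sided exact permutation p was 0.3333, the smallest that 2 libraries against 2 allow, and 0.556 after Benjamini-Hochberg adjustment over the 5 pairs. The share of all gene pairs with separate ratios is not given here, so the number of separate pairs has no background beside it. Ratios of the physical partners *Lrpprc* and *Slirp* overlapped (0.472 and 1.17 against 0.803 and 0.571, exact permutation p = 1). Those of *Pnpt1* and *Supv3l1* overlapped as well (0.508 and 0.383 against 0.648 and 0.397, exact permutation p = 0.667).
The polymerases exchanged places in the order of levels. *Polrmt* to *Polg*, a pair added after the values were seen and not tested, had ratios of 0.667 and 0.695 in wild-type libraries and 1.17 and 1.22 in heterozygous libraries, so the transcribing enzyme had the lower mRNA level in both wild-type libraries and the higher in both heterozygous libraries.

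**Figure D3:**
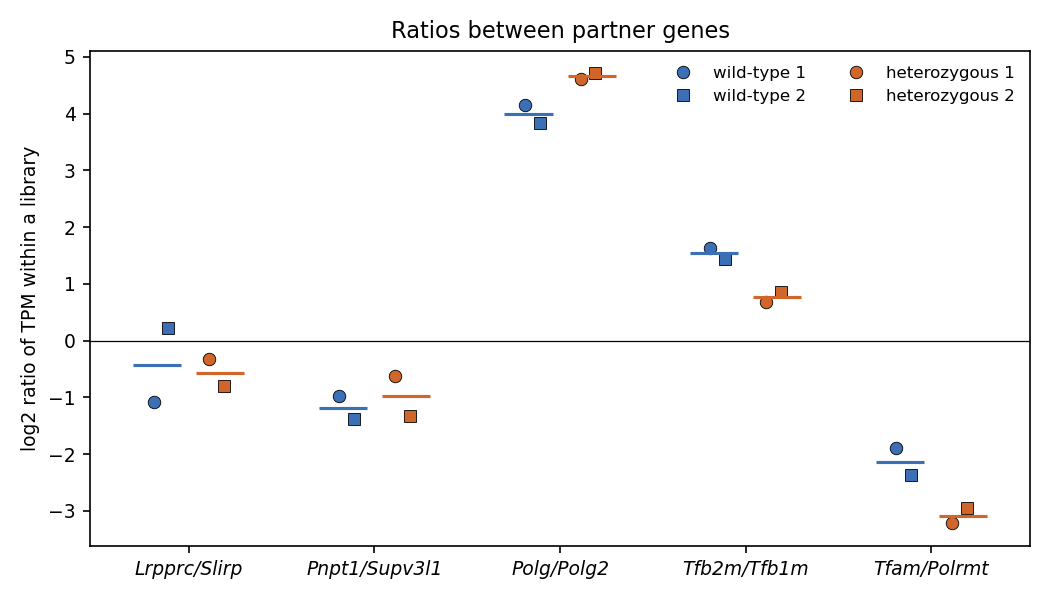
Log2 ratio of the TPM of partner genes within each library, with circles for replicate 1, squares for replicate 2, and lines for genotype means (n = 2). The genotypes are separate for *Polg*/*Polg2*, *Tfb2m*/*Tfb1m* and *Tfam*/*Polrmt* (differences of 0.67, -0.77 and -0.95) and overlap for the other pairs.

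A wider set of 69 genes with roles around these 10 was then read in the same fit, of which 60 passed the filter on low values. As for the 10 genes, 0 were called higher and 0 lower by limma. An unadjusted p under 0.05 was reached by 2 higher genes (*Mterf4* and *Pprc1*) and 4 lower genes (*Hsd17b10*, *Trub2*, *Slc25a33* and *Slc25a36*), which were named after their values were seen. Over all tested genes these shares were 6.49% and 5.71%. The genotypes were separate with higher heterozygous values for 15 of the 60 genes, against 23.7% of all tested genes, and with lower ones for 11, against 23.3%, so neither count stood apart from the background. The median log2 fold change was 0.05 over these 60 genes, -0.11 over the 10 genes and -0.0047 over all tested genes. Of all 10036 tested genes, 4944 were positive and 5092 negative.
Among 12 replication and nucleoid genes, 11 were tested and 9 had positive log2 fold changes, between -0.20 for *Lonp1*, a matrix protease, and 0.31 for *Lig3*, a DNA ligase. *Lonp1* had 10.2 and 10.3 scaled TPM against 8.01 and 9.73, and *Lig3* had 1.59 and 1.17 against 2.73 and 1.32, where a single heterozygous library was high. The 6 elongation and termination genes ran from -0.22 for *Mterf2* to 0.44 for *Mterf4*, which encodes a partner of an rRNA methyltransferase. *Mterf4* stood at 18.0 and 15.9 scaled TPM in wild-type libraries and 23.8 and 22.9 in heterozygous libraries (SE 0.16, adjusted p = 0.372 from limma), a separate pattern that was 0.02 with TPM as deposited.
Of 9 genes for precursor cutting, tailing and turnover, 6 were tested, with *Elac2*, the tRNA 3′ processing enzyme, highest at 0.23 and *Hsd17b10*, a subunit of mitochondrial RNase P that is also a dehydrogenase, lowest at -0.63. *Hsd17b10* had 31.2 and 34.9 scaled TPM in wild-type libraries and 17.5 and 25.1 in heterozygous libraries, without overlap (SE 0.21, adjusted p = 0.356 from limma). The 10 FASTK family and RNA-binding genes ran from -0.27 for *Ptcd2* to 0.22 for *Fastkd5*, and 7 were positive.
The RNA modification genes split evenly, with 6 of 13 tested positive, from -0.43 for *Trub2*, a pseudouridine synthase, to 0.38 for *Mrm1*, an rRNA methyltransferase. *Trub2* stood at 1.29 and 1.32 scaled TPM against 0.746 and 0.675 (SE 0.14, adjusted p = 0.346 from limma). Like *Polg2*, it passed the filter only through its wild-type libraries (mean 1.07 TPM, from 1.40 and 1.66 against 0.61 and 0.61 as deposited). In the nucleotide supply list 6 of 7 tested genes were negative, with a median log2 fold change of -0.22. *Dguok*, the deoxyguanosine kinase gene, was lowest at -0.78 (SE 0.42, adjusted p = 0.475 from limma), with 13.1 and 4.47 scaled TPM in wild-type libraries and 3.35 and 5.04 in heterozygous libraries. As for *Slirp*, the high value was that of wild-type replicate 1 alone. *Rrm2b*, a ribonucleotide reductase subunit gene, was highest in this list at 0.14.

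Among 8 nuclear regulators, 7 were tested and their median log2 fold change was 0.0024. *Nrf1*, which encodes NRF-1, had 1.42 and 1.86 scaled TPM in wild-type libraries and 1.69 and 2.60 in heterozygous libraries (log2 fold change 0.24, SE 0.19, adjusted p = 0.599 from limma). *Gabpa*, for the DNA-binding subunit of GABP, had 5.79 and 6.02 against 7.85 and 5.08 (0.09, SE 0.20, adjusted p = 0.874 from limma). Both genes overlapped between the genotypes. *Ppargc1a*, the gene of the coactivator PGC-1α, was separate but close at 1.002 and 1.11 against 0.991 and 0.908 (-0.08, SE 0.14, adjusted p = 0.835 from limma), and it too passed the filter (mean 1.03 TPM) only through its wild-type libraries. *Pprc1*, a relative of PGC-1α, had 1.86 and 1.60 scaled TPM against 3.90 and 2.36, the largest positive value of this list (0.58, SE 0.20, adjusted p = 0.366 from limma).

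**Figure D4:**
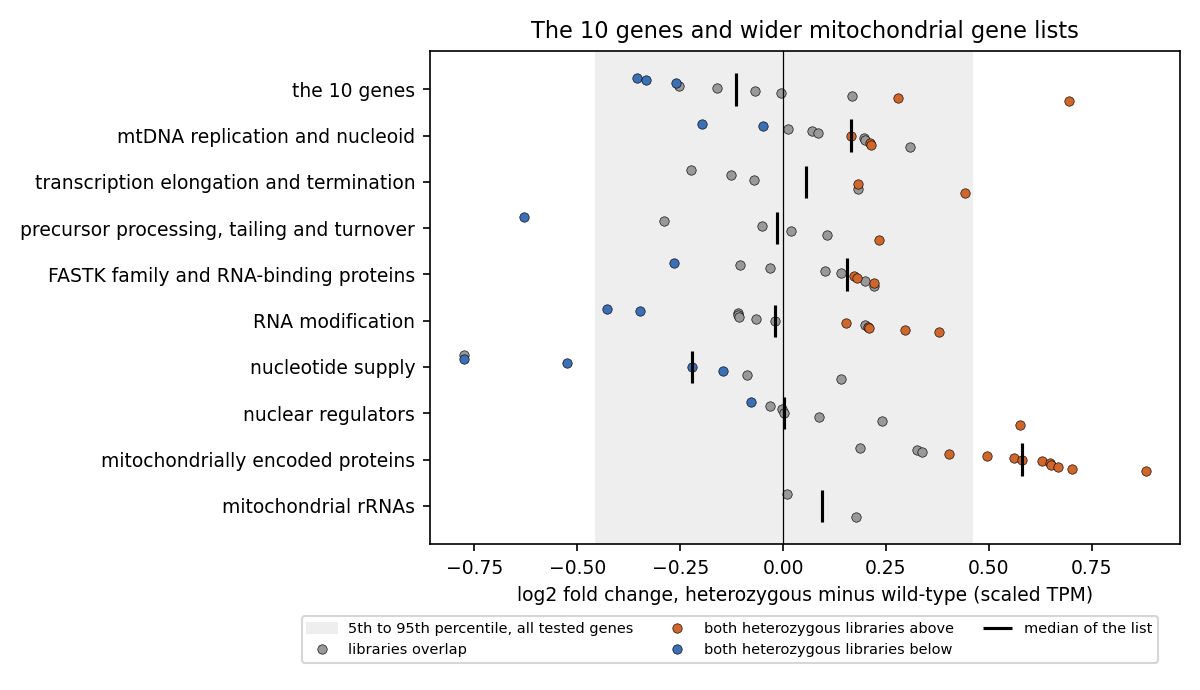
Log2 fold changes (heterozygous minus wild-type, scaled TPM) of every tested gene in each list, coloured by whether both heterozygous libraries lie above or below both wild-type libraries, with a bar at each list's median and grey for the 5th to 95th percentile of all tested genes (-0.46 to 0.46). *Polrmt* at 0.69 is the point of the top row outside the grey band, and the mitochondrially encoded mRNAs lie to the right, with a median of 0.58.

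The RNAs that this machinery makes were measured in the same libraries. All 13 mitochondrially encoded protein genes had positive log2 fold changes, from 0.19 for *mt-Nd4l* to 0.88 for *mt-Atp6*, and 0 were called by limma (7 of 13 had an unadjusted p under 0.05, against 6.49% of all tested genes that were higher at this p and 0.00% called higher). These values depend on the scaling. With TPM as deposited, 9 were positive and 4 negative, with *mt-Nd4l* at -0.26 and *mt-Atp6* at 0.43. Mitochondrially encoded genes together held 64.7% and 61.1% of TPM in wild-type libraries and 68.6% and 62.6% in heterozygous libraries, which overlap. The mRNAs are cut from long transcripts, so the 13 genes are not independent of each other. The rRNAs *mt-Rnr1* and *mt-Rnr2*, which are largely lost when mRNA is captured by its tail, stood at 0.18 and 0.0094 on the same scale. Mitochondrial genes have near-identical copies in the nuclear genome, so the division of their reads is uncertain. These values are given beside those of *Polrmt* (0.69) and *Lrpprc* (-0.33) as a description, since 4 libraries are too few to relate the levels of any of them.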

How the data were processed

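Gene expression was measured by RNA-seq of hearts in 4 libraries, grouped by the genotype in their titles. The authors trimmed reads with Trim Galore, aligned them to mm10 with STAR and quantified genes with RSEM, and deposited TPM per gene rounded to 2 decimals. The annotation release is not given in the sources used here. TPM keep no depth, so no count model was fitted and the authors' count-based test was not repeated. Each library was scaled by its median-of-ratios factor (1.09 and 1.26 for wild-type, 0.818 and 0.903 for heterozygous libraries), and log2 was taken after a pseudocount of 1 was added. Genes with a mean of at least 1 TPM were fitted with limma (3.58.1) in R (4.3.3), by lmFit and eBayes with trend, two-sided. Adjusted p values are from this model over all 10036 tested genes. Partner ratios used an exact permutation test.

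The genes and lists were chosen with earlier results of these data known. All 10 genes were named, with the highest and lowest fold change of each wider list, *Nrf1*, *Gabpa*, *Ppargc1a* and *Ctcf*. Coordinates are those of GENCODE M21 on the same build, to which 55141 identifiers matched without their version. Near-identical transcripts were sought with BLAST+ (2.17.0). The fit was tested on simulated data.

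Same-numbered libraries share only a number. The alternatives were pseudocounts of 0.1 and 5, other filters, quantile normalization, unscaled TPM, TPM recomputed without mt- genes, other eBayes settings, a replicate block, other thresholds and each library left out. Scaling factors over all genes above 0 were added after the data were seen.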

Additional observations from a re-analysis of the deposited data

How the results depend on the processing

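None of the 10 genes was called under any of 17 alternatives, and the lowest adjusted p of any of them from limma was 0.0891 (*Tfb2m* and *Lrpprc*, with TPM as deposited). The threshold of adjusted p under 0.01 with fold change over 2 is stricter than the main one, so it could not add a call. Of 143 recomputed fold changes, 136 kept their direction. Some of these could not change, because other filters, other eBayes settings and the replicate block left the fold change of each tested gene as it was. *Polrmt* was positive throughout, from 0.27 to 0.73, with adjusted p values from 0.130 to 0.957. On unscaled TPM *Tfb1m* was -0.0038 and *Pnpt1* -0.21. After mt- genes were removed, *Pnpt1* was -0.13. The count of genes with separate genotypes, 2 higher and 3 lower, became 1 and 7 on unscaled TPM (2.32% and 67.8% of all tested genes), 1 and 6 without mt- genes (5.23% and 56.1%), and 1 and 0 of 5 tested genes at a mean of at least 5 TPM. The median of all tested genes was -0.35 on unscaled TPM and -0.29 without mt- genes.

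Leaving out 1 library at a time gave 2 to 4 higher and 2 to 5 lower genes, where the share of all tested genes that were separate was itself 33.0% to 40.9% higher and 32.7% to 40.6% lower. *Tfam* ran from -0.32 to 0.0026, *Slirp* from -0.70 to 0.20 and the median of the genes tested from -0.21 to 0.0026, each highest without wild-type replicate 1. *Supv3l1* ran from -0.23 to 0.23 (0.06 without wild-type replicate 2, 0.23 without heterozygous replicate 1). The log2 ratio difference of *Lrpprc* to *Slirp* (-0.14) ran from -0.79 to 0.52, positive without wild-type replicate 2 and without heterozygous replicate 2 (0.11). That of *Pnpt1* to *Supv3l1* (0.20) ran from -0.15 to 0.56, negative without heterozygous replicate 1 and without wild-type replicate 2 (-0.0015). The other 3 ratios kept their sign. With 1 added to both TPM, *Polg* to *Polg2* went from 0.67 to 0.08 and *Lrpprc* to *Slirp* from -0.14 to -0.07, while *Pnpt1* to *Supv3l1* was 0.20, *Tfb2m* to *Tfb1m* -0.61 and *Tfam* to *Polrmt* -0.75. The cause was not tested. When a genotype was left with 1 library, that library was assumed to vary like the other genotype.

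Deviations of same-numbered libraries correlated at 0.101, and with the replicate number as a block 0 of the 10 genes were called (adjusted p = 0.207 for *Polrmt*). The calls over all genes went from 2 to 10 with the block, to 13 on unscaled TPM, 8 without mt- genes, 4 with a pseudocount of 0.1, 5 with robust eBayes and 3 with factors over all genes above 0, and to between 10 and 25 with 1 library left out. The number of libraries, 2 in each genotype, limits all these values.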
